A study of Mus musculus with 14 samples.

Results

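The 60 genes described here build and run the Golgi apparatus: golgins and other tethers, ARF GTPases and their regulators, the COPI coat, the AP-1 adaptor, the COG complex, p24 cargo receptors, Golgi SNAREs and Golgi enzymes. The rule that lists them goes by gene symbol and applies no measured value, and Rab genes were left out. Of the 60, 46 were measured, among 8671 named genes measured in all. A gene counts as measured where 4 or more arrays gave a probe of it a detection p under 0.05, and its brightest such probe stands for it. A further 7 (Golgb1, Blzf1, Tmf1, Trip11, Arfgef1, Cog5 and Cog7) had no probe named here, and the probes of 7 others (Gcc1, Gopc, Arf4, Copb1, Arcn1, Tmed2 and B4galt1) were detected on 0 to 3 arrays.

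The samples are Illumina bead arrays of RNA from the hippocampal CA3 field of adult Sv129Pas mice. In the Dcx mutant the CA3 pyramidal layer is split, and its internal (SPI, n = 4) and external (SPE, n = 5) strata were microdissected apart. The WT group (n = 5) is CA3 of mice with no Dcx mutation, taken in 1 piece. Animals 146, 147, 148 and 166 gave both mutant layers and animal 165 gave SPE only, while the WT arrays come from animals 142, 144, 145, 199 and 206. Values per array are printed in these orders of animals.

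Dcx lies on the X chromosome and encodes doublecortin, a microtubule-associated protein. The labels do not give the type of the mutation, and the Dcx probe differed by -0.43 ± 0.23 log2 in SPI against WT (limma, adjusted p = 0.184, SE), which does not check the labels because the mutated part is not known. Groups were taken from the sample titles, since the region field of the SPE samples carries the code of the inner layer. RNA was extracted from dissected layers that hold several cell types, so fewer cells of a type and less RNA per cell cannot be told apart. Of 8 CA3 pyramidal cell markers, 7 were measured, and their summed normalised signal was 12400 to 16600 in SPI, 12500 to 15300 in SPE and 13300 to 15900 in WT. Within that list Bok rose by 0.74 log2 in SPI against WT and Cpne4 and Spock1 fell by 0.91 and 1.13, and of 7 measured pan-neuronal markers Map2 rose and Stmn2, Nefm and Rbfox3 fell.

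Proteins leave the endoplasmic reticulum for the Golgi in vesicles, are modified by glycosylating and sulfating enzymes as they cross the stack, and are sorted at its trans side. COPI vesicles, whose coat is recruited by ARF GTPases in the GTP-bound state, carry enzymes and escaped residents back. Golgins, GRASP proteins and the COG complex catch these vesicles and hold cisternae together, and SNAREs fuse the membranes. In neurons the Golgi and its outposts supply the membrane and glycoproteins of dendrites.

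The promoters of Arf5, Arf1, Copg1 and Cope, ARF and COPI genes described below, are shown because each holds 1 or more of the letter runs searched. Whether these sequences bear on the signals was not tested. Each is the sequence from 250 bases before to 50 bases after a RefSeq gene start, build GRCm38.p6. Capitals mark the Golgi stress response element ACGTGGC, the unfolded protein response element TGACGTGG or the cyclic AMP response element TGACGTCA, on either strand. The Arf5 window is chr6:28423354-28423653, plus strand. The Arf1 window is chr11:59228113-59228412, minus strand. The Copg1 window is chr6:87887690-87887989, plus strand. The Cope window is chr8:70302517-70302816, plus strand.
Arf5: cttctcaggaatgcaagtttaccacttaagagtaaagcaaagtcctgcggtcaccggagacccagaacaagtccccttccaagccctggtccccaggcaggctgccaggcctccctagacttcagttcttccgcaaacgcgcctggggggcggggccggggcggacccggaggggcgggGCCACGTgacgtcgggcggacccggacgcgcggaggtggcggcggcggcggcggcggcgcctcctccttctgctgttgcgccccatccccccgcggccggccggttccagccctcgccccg
Arf1: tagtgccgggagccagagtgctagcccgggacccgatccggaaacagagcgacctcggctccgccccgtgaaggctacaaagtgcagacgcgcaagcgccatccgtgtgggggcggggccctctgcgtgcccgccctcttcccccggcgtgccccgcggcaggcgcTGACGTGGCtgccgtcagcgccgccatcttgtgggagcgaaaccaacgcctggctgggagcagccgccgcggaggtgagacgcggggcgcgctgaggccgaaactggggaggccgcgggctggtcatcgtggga
Copg1: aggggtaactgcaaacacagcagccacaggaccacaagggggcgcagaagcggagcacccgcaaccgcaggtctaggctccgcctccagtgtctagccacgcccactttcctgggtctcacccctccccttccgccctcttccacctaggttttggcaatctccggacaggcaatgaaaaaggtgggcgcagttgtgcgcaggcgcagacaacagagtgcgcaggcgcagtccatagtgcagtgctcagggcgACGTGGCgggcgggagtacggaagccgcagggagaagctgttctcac
Cope: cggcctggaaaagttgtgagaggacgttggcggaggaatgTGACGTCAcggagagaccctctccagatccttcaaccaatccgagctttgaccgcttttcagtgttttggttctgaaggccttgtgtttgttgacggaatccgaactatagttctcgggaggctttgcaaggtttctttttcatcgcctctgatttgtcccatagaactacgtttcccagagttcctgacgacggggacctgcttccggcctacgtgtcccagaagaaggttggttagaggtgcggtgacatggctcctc

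RefSeq gave a promoter for 52 of the 60 genes. The element ACGTGGC stood in 8 of the 52 (Golga3, Uso1, Arf1, Arf5, Copg1, Cog3, Tmed3 and Tmed9; 15.4%), against 2.95% of 27025 genes with such a window and 4.80% of 7079 such genes measured on these arrays. TGACGTGG stood in 4 (Arf1, Gbf1, Copb1 and Copb2; 7.69%), against 0.714% of all genes and 1.05% of those measured here. In Arf1 both letter runs overlap as TGACGTGGC. TGACGTCA, which reads the same on both strands, stood in 2 (Cope and Gosr2; 3.85%), against 2.03% and 3.60%. Of other motifs searched on both strands, the endoplasmic reticulum stress element and the CLEAR element were in none (0.137% and 0.37% of all genes, 0.141% and 0.763% of those measured). The NRF1 motif was in 5 (9.62%, against 1.07% and 2.22%) and the ETS motif CCGGAAGT in 10 (19.2%, against 4.31% and 9.17%). Among genes tested against WT below, ACGTGGC stood in the promoters of 2 of 6 whose brightest probe fell in SPI (Arf5 and Copg1, whose other probes disagree), 0 of 6 whose brightest probe rose and 6 of 30 that did not pass. These matches are letters in a window and not known sites.

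In the inner mutant layer, 13 of the 46 measured Golgi genes passed the test against WT (28.3%), where 24.5% of all 9355 features passed. Tpst2, Cog2, Golga2, Cog8, Gorasp1 and Cope rose. Arf5, Ykt6, Arf3, Golga7, Cog6 and the brightest of 4 disagreeing probes each of Gosr2 and Copg1 fell. The 6 that rose did so by 0.37 to 0.61 log2, and the 7 that fell did so by 0.44 to 1.87 log2. With arrays scaled on the median of all probes, the 6 turned negative, but there the median over all features was itself -0.85, and 31 members were called, all lower, against 43.0% of features. Scaled on the median of detected probes instead, 9 were called, 1 higher (Cog2) and 8 lower, against 34.1% of features. Over all features 13.6% rose and 10.9% fell, and 19 of the 46 members had an unadjusted p under 0.05, against 37.9% of features. The median difference of the 46 was -0.10 log2, against 0.035 over all features. For 14 members (30.4%) the SPI and WT arrays kept apart with no overlap, against 21.5% of features. All tests are limma fits over all features with animal as a random block, Benjamini-Hochberg adjusted, called at 0.05.

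The SPI arrays were dimmer: the mean raw signal was 362, 119, 231 and 331 on the SPI arrays, 400, 414, 279, 482 and 478 on SPE, and 515, 483, 442, 371 and 469 on WT. With mean signal as a covariate 0 of the 46 were called in SPI against WT (5.38% of all features), and all 13 kept their sign, while 8 were called without WT 142 (17.7% of features). The covariate left Arf5 at -0.87 log2, Gosr2 at -0.70, Golga7 at -0.59, Arf3 at -0.42, Cope at 0.24, Cog2 at 0.22 and Golga2 at 0.073.

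**Figure D1:**
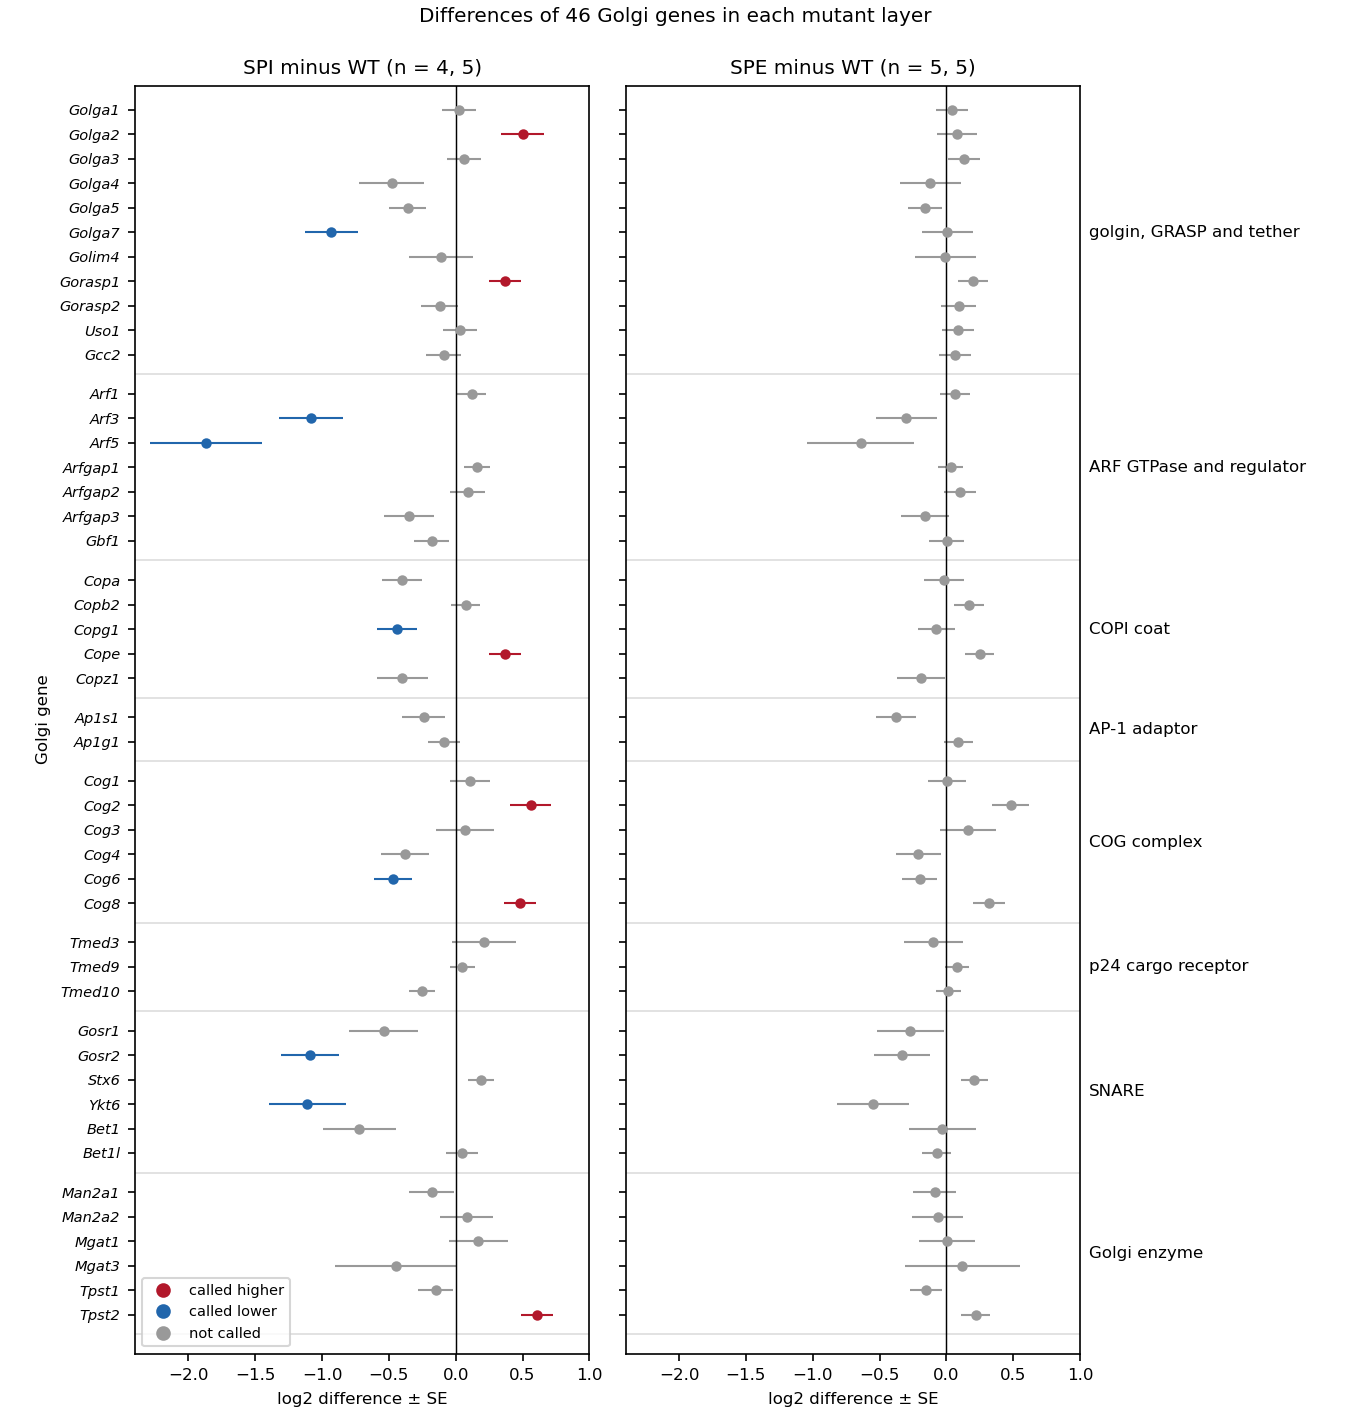
Log2 differences with their SE for the 46 measured genes, grouped by role, in SPI minus WT (left) and SPE minus WT (right). The left panel has 6 genes called higher, which turn negative with arrays scaled on the median of all probes, and 7 called lower, and the right panel has none.

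Among golgins, GRASP proteins and other tethers, 2 of 11 measured genes rose in SPI against WT, 1 fell and 8 did not pass. The share called was 27.3%, against 24.5% of all features. Golga2, the cis-Golgi matrix golgin, had log2 signals of 9.41, 10.17, 9.67 and 9.40 in SPI, 9.18, 9.22, 9.49, 9.04 and 9.18 in SPE, and 9.05, 9.32, 9.17, 9.22 and 8.95 in WT. Every SPI array lay above every WT array, animal 147 highest, while SPE 148 reached the SPI range. Golga2 was 0.50 ± 0.16 log2 higher in SPI than in WT (limma, adjusted p = 0.0301, SE). The value was 0.32 without SPI 147 and 0.30 with array weights, neither called, and 0.46 to 0.51 without WT 142, WT 145 or WT 206, which also lost the call.

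Gorasp1, the GRASP partner of Golga2 in stacking of cisternae, had 8.79, 8.81, 8.93 and 8.66 in SPI, 8.41, 8.84, 8.87, 8.52 and 8.47 in SPE, and 8.35, 8.44, 8.27, 8.46 and 8.57 in WT. SPI lay above WT without overlap, and SPE arrays fell in both ranges. The difference of SPI from WT was 0.37 ± 0.12 log2 (limma, adjusted p = 0.0345, SE), a call lost without any 1 of SPI 146, SPI 148, WT 142, WT 144, WT 145 or WT 199. Golga7, a palmitoylated Golgi protein that pairs with the palmitoyltransferase Zdhhc9, had 4.99, 4.48, 4.66 and 5.21 in SPI, 5.92, 5.76, 5.28, 5.73 and 6.14 in SPE, and 5.81, 5.53, 6.33, 5.57 and 5.54 in WT. All 4 SPI arrays were below all others of both groups. Golga7 fell by 0.93 log2 in SPI against WT (SE 0.20, limma, adjusted p = 0.00463), although 2 of 4 SPI arrays detected it, and the difference was -0.30 with no background correction, -0.32 on the deposited normalised values, and -0.099 and not called with arrays scaled on the median of detected probes. Arf5, Bet1, Gosr1 and Mgat3 were detected on 3 of 4 SPI arrays, all but SPI 147, and Golga4, Golim4 and Man2a2 on 2. The other tethers had values from -0.48 (Golga4) to 0.063 (Golga3), none called, and Golga5, a golgin of the Golgi rim, separated SPI from WT at -0.36 (limma, adjusted p = 0.067).

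In the ARF group, 2 of 7 measured genes fell in SPI against WT and none rose (28.6% called, against 24.5% of all features). Arf5, a class II ARF whose promoter is printed above, had 6.74, 5.47, 5.97 and 7.47 in SPI, 8.20, 7.88, 6.10, 8.08 and 8.15 in SPE, and 8.49, 7.77, 8.24, 8.63 and 8.47 in WT. Each SPI array was below each WT array, and SPE 148 lay among the SPI values. Arf5 fell by 1.87 log2 in SPI against WT (SE 0.42, 3.67-fold lower, limma, adjusted p = 0.00583), or by 1.13 with no background correction, 1.2 on the deposited normalised values and 1.21 without the 3 dimmest arrays, all called. Arf3, a class I ARF of the trans-Golgi, had 10.95, 9.96, 10.44 and 11.28 in SPI, 11.76, 11.54, 10.76, 11.73 and 11.51 in SPE, and 11.94, 11.76, 11.74, 11.73 and 11.63 in WT. WT arrays were tightly grouped above all SPI arrays, and SPE 148 stood far below the rest of its group. Arf3 fell by 1.08 log2 (SE 0.24, 2.12-fold lower, limma, adjusted p = 0.00582), or by 0.65 without the 3 dimmest arrays.

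Arf1, the class I ARF that recruits COPI, differed by 0.12 ± 0.11 log2 between SPI and WT (limma, adjusted p = 0.481, 95% interval -0.13 to 0.36). Its guanine nucleotide exchange factor Gbf1 had -0.18 log2, and the GTPase-activating proteins Arfgap1, Arfgap2 and Arfgap3, which end ARF signalling, had 0.16, 0.090 and -0.35 log2, none called.

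Of the COPI coat, 5 of 7 subunits were measured, and Cope rose while the brightest Copg1 probe fell in SPI against WT. The share called was 40%, against 24.5% of all features. Cope, the epsilon subunit, had 12.01, 12.07, 12.15 and 11.91 in SPI, 11.89, 11.92, 12.17, 11.69 and 11.77 in SPE, and 11.69, 11.51, 11.76, 11.82 and 11.44 in WT. SPI lay above WT without overlap, and SPE spanned both. Cope differed by 0.37 ± 0.12 log2 between SPI and WT (limma, adjusted p = 0.0298, SE), a call lost without SPI 146, SPI 148, WT 142, WT 144 or WT 206. Copg1, the gamma subunit, had 10.17, 10.62, 9.81 and 10.45 in SPI, 10.68, 10.77, 10.30, 10.86 and 10.60 in SPE, and 10.85, 10.54, 10.81, 10.80 and 10.59 in WT. SPI 147 lay inside the WT range and the other SPI arrays below it. The brightest Copg1 probe fell by 0.44 log2 (SE 0.15, limma, adjusted p = 0.0467), a call lost on leaving out SPI 146, SPI 148, SPE 146, SPE 147, SPE 166, WT 142, WT 145, WT 199 or WT 206.

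Copa, the alpha subunit, had 9.96, 9.32, 10.11 and 10.03 in SPI, 10.33, 10.28, 10.23, 10.20 and 10.11 in SPE, and 10.39, 10.32, 10.37, 10.06 and 10.11 in WT. The SPI values overlapped WT and SPI 147 was the lowest, with a difference of -0.40 ± 0.15 log2 from WT (limma, adjusted p = 0.071). Copz1, the zeta subunit, had 9.61, 10.03, 9.04 and 9.93 in SPI, 10.06, 10.14, 9.32, 9.99 and 9.84 in SPE, and 10.22, 9.79, 10.17, 10.02 and 10.10 in WT. SPI 148 and SPE 148 were the lowest of their groups, and the difference of SPI from WT was -0.40 ± 0.19 log2 (limma, adjusted p = 0.128). Copb2, the beta-prime subunit, had 10.84, 10.75, 11.15 and 10.95 in SPI, 11.03, 11.02, 11.19, 10.92 and 10.88 in SPE, and 10.82, 11.05, 10.85, 10.65 and 10.84 in WT. The groups overlapped throughout, at 0.075 ± 0.11 log2 in SPI against WT (limma, adjusted p = 0.661). The AP-1 adaptor, which buds clathrin vesicles from the trans-Golgi, had no member called, with -0.24 log2 for Ap1s1 and -0.089 for Ap1g1.

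The COG complex, a tether of vesicles recycling Golgi enzymes, had 2 of 6 measured subunits higher in SPI than in WT and 1 lower. The share called was 50%, against 24.5% of all features. Cog2, of the first lobe, had 6.11, 6.67, 5.99 and 6.31 in SPI, 6.17, 6.09, 6.36, 6.21 and 6.13 in SPE, and 5.63, 5.68, 5.58, 6.06 and 5.63 in WT. All mutant arrays but SPI 148 lay above the WT arrays, with WT 199 nearest to them. The difference was 0.56 ± 0.15 log2 in SPI against WT (limma, adjusted p = 0.0161, SE), or 0.23 with no background correction and 0.25 on the deposited normalised values, both called. Cog8, of the second lobe, had 9.90, 9.90, 9.95 and 9.83 in SPI, 9.67, 9.71, 10.07, 9.43 and 9.71 in SPE, and 9.32, 9.46, 9.59, 9.43 and 9.18 in WT. SPI arrays were close together and above all WT arrays, and SPE 148 was the highest of all. Cog8 differed by 0.48 ± 0.12 log2 (limma, adjusted p = 0.0134, SE).

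Cog6, also of the second lobe, had 8.21, 8.37, 8.30 and 8.56 in SPI, 8.58, 8.54, 8.54, 8.99 and 8.59 in SPE, and 8.90, 8.98, 8.71, 8.55 and 9.13 in WT. SPI 166 and WT 199 met at nearly the same value, and the rest of the SPI arrays lay below WT. Cog6 fell by 0.47 log2 in SPI against WT (SE 0.14, limma, adjusted p = 0.0240), a call lost without SPI 146, WT 142, WT 144 or WT 206. Cog4 had -0.38 log2, Cog1 0.11 and Cog3 0.069, none called.

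Golgi SNAREs, which fuse vesicles with cisternae, were all 6 measured. The brightest probes of Gosr2 and Ykt6 fell in SPI against WT (33.3% called, against 24.5% of all features). Gosr2, a Qb-SNARE of endoplasmic reticulum to Golgi transport, had 7.17, 6.77, 6.33 and 7.26 in SPI, 7.74, 7.85, 6.80, 8.00 and 7.95 in SPE, and 8.14, 7.71, 8.20, 8.16 and 7.80 in WT. SPI lay below WT without overlap, and SPE 148 was among the SPI values. The brightest Gosr2 probe fell by 1.09 log2 (SE 0.22, 2.13-fold lower, limma, adjusted p = 0.00377), or by 0.69 with no background correction. The mean of the Gosr2 probes fell by 0.54, and its further probes had 0.17, 0.11 and -1.34, only the last called. Ykt6, a lipid-anchored R-SNARE, had 7.62, 7.52, 6.31 and 8.09 in SPI, 8.11, 8.16, 7.04, 8.26 and 8.27 in SPE, and 8.71, 8.03, 8.39, 8.72 and 8.72 in WT. Only SPI 166 reached the lowest WT array. Ykt6 fell by 1.11 log2 (SE 0.29, 2.15-fold lower, limma, adjusted p = 0.0136), and the call was lost without SPI 148, while the value was -0.66 without the 3 dimmest arrays.

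Bet1, the Qc-SNARE partner of Gosr2, had 5.87, 4.36, 5.75 and 5.85 in SPI, 6.11, 6.11, 6.44, 6.28 and 5.85 in SPE, and 5.87, 6.21, 6.33, 6.13 and 6.40 in WT. SPI 147 stood far below the rest of its group, and the others were just under or beside the lowest WT array. The difference of SPI from WT was -0.72 ± 0.27 log2 (limma, adjusted p = 0.0601). Gosr1 had -0.54 log2, Stx6 0.19 and Bet1l 0.045, none called. The p24 protein Tmed10, a cargo receptor of early secretory vesicles, ranged from 10.65 to 10.87 in SPI, 10.89 to 11.23 in SPE and 10.93 to 11.15 in WT. SPI separated from both other groups, at -0.25 ± 0.097 log2 from WT (limma, adjusted p = 0.0691).

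Of 6 measured Golgi enzymes, Tpst2 rose in SPI against WT (16.7% called, against 24.5% of all features). Tpst2, a tyrosylprotein sulfotransferase, had 9.72, 9.86, 9.93 and 9.74 in SPI, 9.35, 9.34, 9.78, 9.27 and 9.31 in SPE, and 8.98, 9.25, 9.20, 9.31 and 9.23 in WT. SPI lay above WT without overlap and was matched in SPE by animal 148. Tpst2 differed by 0.61 ± 0.12 log2 (limma, adjusted p = 0.00245, SE). Its paralog Tpst1 had -0.15 log2, and the N-glycan enzymes Mgat1, Man2a1, Man2a2 and Mgat3 had 0.17, -0.18, 0.081 and -0.45, none called.

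**Figure D2:**
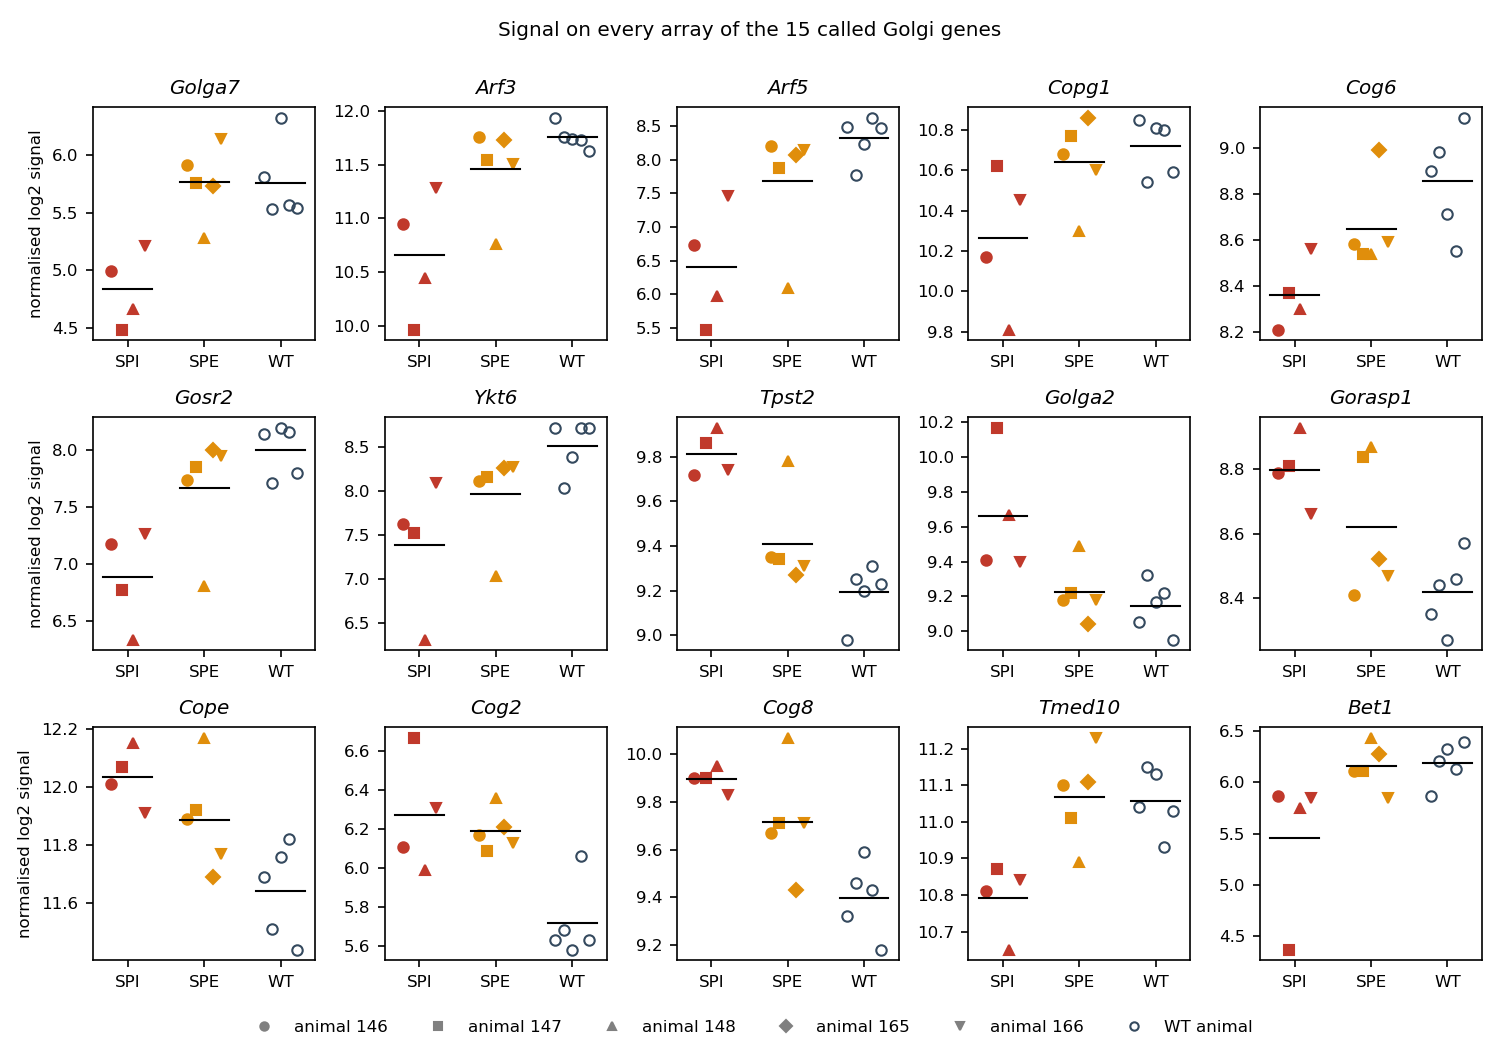
Normalised log2 signal on every array of the 15 genes called in at least 1 comparison, with SPI, SPE and WT from left to right, one symbol per animal of the mutant layers and a line at each mean. SPE 148 (triangle) lies near the SPI values for Arf5, Arf3, Gosr2 and Tpst2.

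The layers of the mutant were compared with animal as a block, and 8 of 46 members were called in SPI against SPE (17.4%), where 20.5% of all features were. Golga7, Arf3, Arf5, Gosr2, Bet1 and Tmed10 fell and Tpst2 and Golga2 rose, the last 2 turning negative (-0.63 and -0.60 log2) with arrays scaled on the median of all probes, where the median over all features was -0.73. Over all features 10.8% rose and 9.65% fell, and 12 members had an unadjusted p under 0.05, against 35% of features. No COPI or COG subunit was called on its brightest probe. Further probes of Copg1 (0.31 and 0.39) and Cope (0.41) were called higher and 1 of Cog6 (-0.42) lower (limma, adjusted over 12140 probes). The other further probes of Copg1 and Cope were not called. Groups did not overlap for Golga7 and Tmed10 (4.35% of members), against 9.99% of features.

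Golga7 differed by -0.93, -1.27, -0.62 and -0.93 log2 within animals 146, 147, 148 and 166. Its probe was not detected on SPI 147 and SPI 148, so the sizes in those animals rest on values at the background. All 4 animals were lower in SPI, and the fitted difference was -0.93 ± 0.17 (limma, adjusted p = 0.00142), or -0.30 with no background correction, and -0.20 and not called with detected-probe median scaling. Arf5 differed by -1.46, -2.41, -0.13 and -0.68 log2 within these animals, and its probe was not detected on SPI 147. The direction was shared, but animal 148 hardly differed, and the fit gave -1.24 ± 0.35 (limma, adjusted p = 0.0226), or -0.72 with no background correction. Arf3 differed by -0.82, -1.58, -0.32 and -0.23 log2 and Gosr2 by -0.57, -1.08, -0.46 and -0.69 within animals. On the brightest probe both were lower in SPI in every animal, most in animal 147. Fitted values were -0.78 ± 0.20 for Arf3 and -0.76 ± 0.19 for Gosr2 (limma, adjusted p = 0.0145 and 0.0115). Without SPI 147 Arf3 had -0.51, and with no background correction Gosr2 had -0.47, both called. Of the further Gosr2 probes 1 was called lower (-0.95, limma, adjusted p = 0.00867), while the others had -0.097 and -0.064, not called.

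Bet1 differed by -0.24, -1.75, -0.69 and 0 log2, so animal 166 showed no difference, and the fit gave -0.69 ± 0.22 (limma, adjusted p = 0.0411), or -0.32 and not called without SPI 147. The Bet1 probe was not detected on SPI 147. Tmed10 had -0.29, -0.13, -0.24 and -0.38, lower in each animal, with a fit of -0.27 ± 0.082 (limma, adjusted p = 0.0322). Tpst2 had 0.36, 0.52, 0.15 and 0.43, higher in each, with 0.39 ± 0.098 (limma, adjusted p = 0.0123), and Golga2 had 0.23, 0.95, 0.18 and 0.22, with 0.43 ± 0.13 (limma, adjusted p = 0.0330), or 0.24 and not called without SPI 147. The count was 1 without SPI 148 (10.4% of features), 4 without SPE 146 (15.3%), 5 without SPE 165 (15.7%) and 1, Golga7, with mean signal as a covariate (8.35%). It was 0 with arrays scaled on the median of all probes (0% of features) and 4 with no replicate block (11.4%). The replicate block as fixed effects in 4 animals left 1, Golga7 (3.81%).

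**Figure D3:**
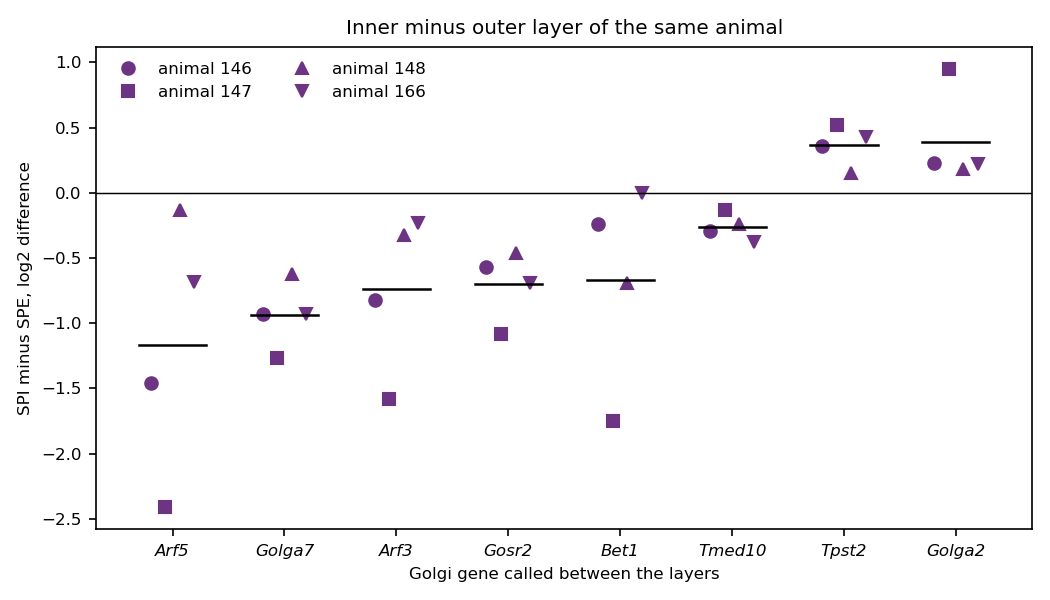
SPI minus SPE log2 difference within each of the 4 animals that gave both layers, for the 8 genes called between the layers, with a line at the mean. Golga7, Arf5, Arf3, Gosr2 and Tmed10 are negative in all 4 animals, and Tpst2 and Golga2 are positive in all 4, turning negative in the fit with arrays scaled on the median of all probes. The probes of Golga7, Arf5 and Bet1 were not detected on SPI 147, nor that of Golga7 on SPI 148.

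In the outer layer no member was called against WT (0%), as for all 9355 features, and 4 of 46 members had an unadjusted p under 0.05, against 3.83% of features. Cog2 differed by 0.48 ± 0.14 log2 (limma, unadjusted p = 0.00435, adjusted p = 0.904) and was the 1 member whose SPE and WT arrays did not overlap (2.17%, against 1.62% of features). Cog8 had 0.32 ± 0.12 log2 and Ap1s1 -0.38 ± 0.15. Counts called in SPI and not in SPE are not a test of the layers; that test is the comparison of SPI with SPE above.

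The outer array of animal 148, the dimmest of its group, lay apart from the other 4 SPE arrays for the genes called in SPI. For the 7 that fell in SPI against WT, its mean log2 signal was 7.83, against 8.64 to 8.81 on the other SPE arrays, 7.40 to 8.33 in SPI and 8.62 to 8.98 in WT. It was below every other SPE array for 6 of the 7. For the 6 that rose in SPI, which turn negative with arrays scaled on the median of all probes, it was above every other SPE array for 6 of 6, at 9.46 against 9.03 to 9.19, with 9.31 to 9.58 in SPI and 8.83 to 9.05 in WT. Without that array and the dimmest array of all, SPI 147, 17 members were called in SPI against WT, 6 higher and 11 lower, against 31.4% of features. Without the 3 dimmest arrays (SPI 147, SPI 148 and SPE 148) 9 were called, 3 higher and 6 lower, against 20% of features.

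Markers of other cell types moved with SPI. Of the measured markers, 6 of 8 astrocyte, 7 of 8 oligodendrocyte, 5 of 7 microglia and 8 of 8 interneuron genes rose in SPI against WT and none fell, while 1 of 5 endothelial genes rose and 1 fell. Summed astrocyte signal was 9830 to 14400 in SPI, 5370 to 6320 in SPE and 5130 to 5890 in WT. Summed oligodendrocyte signal was 10600 to 18900 in SPI, 6410 to 6940 in SPE and 5110 to 7190 in WT. Microglial signal was 858 to 1250 in SPI, 512 to 589 in SPE and 422 to 525 in WT, and interneuron signal 10900 to 14500 in SPI, 3850 to 5200 in SPE and 4810 to 5770 in WT. The outer array of animal 148 had an astrocyte sum of 6120, an oligodendrocyte sum of 6570 and a microglial sum of 584, within the range of the other SPE arrays. Its interneuron sum of 5200 was the highest of the SPE arrays. Its likeness to SPI above is for the means of the genes called in SPI against WT, not for all members. S100b, Olig2, Csf1r, P2ry12, Gad2, Cldn5 and Cdh5 were listed as markers and not measured. The part of these cell types in the Golgi values was not tested.

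**Figure D4:**
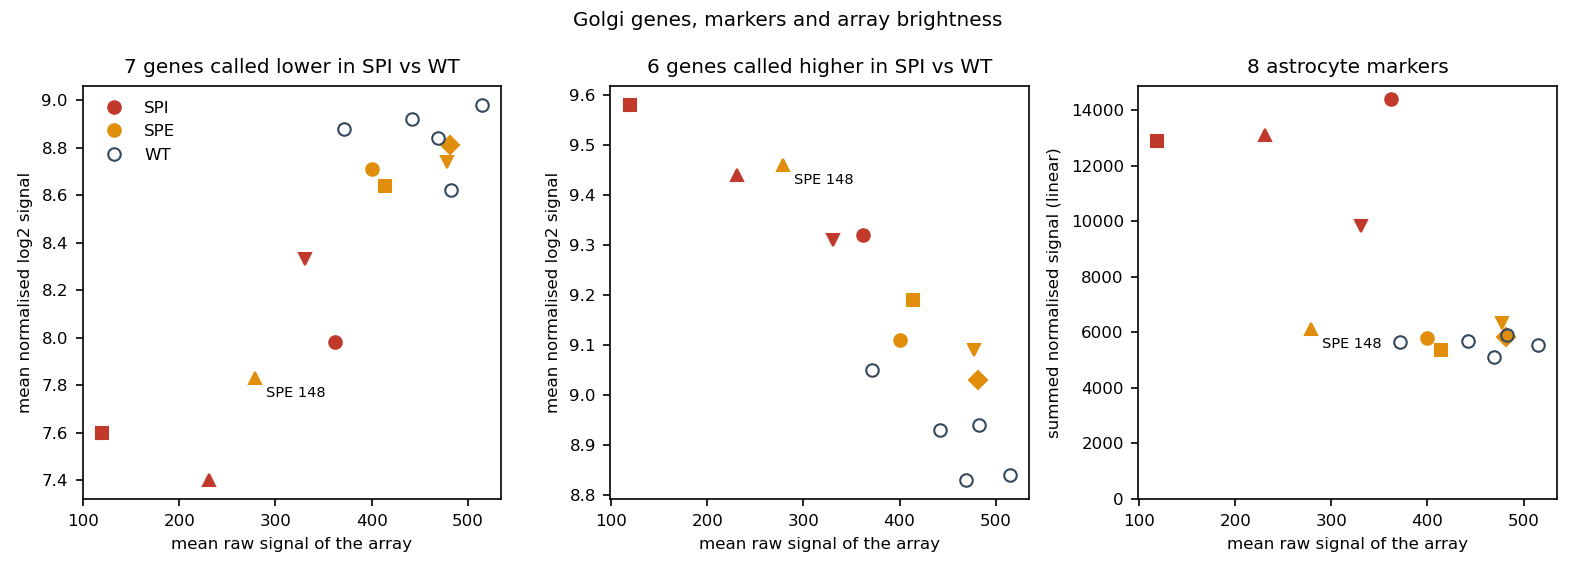
Mean raw signal of each array against the mean log2 signal of the 7 genes called lower (left) and the 6 called higher (middle, negative with arrays scaled on the median of all probes) in SPI against WT, and against the summed signal of 8 astrocyte markers (right). SPE 148, at a raw signal of 279, sits with SPI for the means of these called genes, picked for their SPI difference, and with SPE for the astrocyte markers.

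For 14 of the 46 members 28 further probes passed the filter, and 14 of the 28 had the sign of the brightest probe in SPI against WT. Their median was -0.22 log2, against -0.004 for the brightest probes of the same genes. Of the 28, 10 were called lower and 3 higher (limma, adjusted over 12140 probes), where 26.1% of all 12140 probes were called.

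Copg1 had 4 probes that disagreed. The brightest, at -0.44, is annotated to another transcript than the other 3, which had 0.44 (limma, adjusted p = 0.0217), 0.49 (0.0199) and -0.49 (0.0152), so no direction is given for Copg1 as a gene. Gosr2 had further values of 0.17, 0.11 and -1.34, the last called (limma, adjusted p = 0.0029), and Gorasp2 had -0.12 for its brightest probe and 0.16, -2.10 and -0.62 for the rest, the last 2 called lower. The second probes of Ykt6 (-0.80) and Cog6 (-0.73) were called lower like the first, and of the further Golga2 probes 1 was called higher (0.73) and the others had 0.34 and -0.18, not called. The 3 further Cope probes had 0.26, 0.28 and 0.38, none called. Arfgap1 (-0.95), Arfgap2 (-0.76), Ap1s1 (-0.62) and Man2a2 (-0.51) each had 1 further probe called lower.

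**Figure D5:**
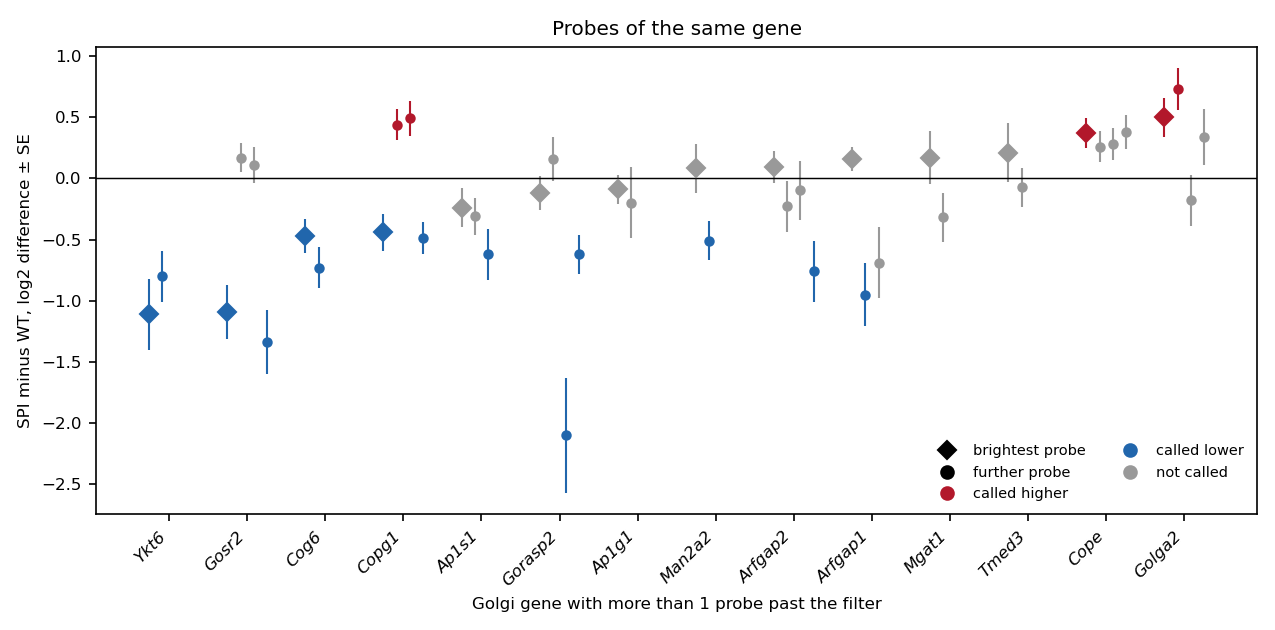
SPI minus WT log2 difference with its SE for each probe of the 14 genes with several probes, the brightest as a diamond. Golga2, Gorasp2, Arfgap1, Arfgap2, Copg1, Tmed3, Gosr2, Man2a2 and Mgat1 have probes on both sides of 0.

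Spread within groups was wider in SPI: the median SD of the 46 members was 0.30 log2 in SPI, 0.19 in SPE and 0.17 in WT, against 0.31, 0.20 and 0.17 over all features. The 7 that fell had median SDs of 0.42 in SPI, 0.41 in SPE and 0.23 in WT, and the 6 that rose, negative with arrays scaled on the median of all probes, had 0.11, 0.19 and 0.15. Both sets were picked by a test that weighs a difference against its spread, and small differences pass it only with a small spread. Their SDs therefore depend on that choice and are not a separate result.

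Genes of neighbouring steps were read the same way. Of 42 measured among 65 other Golgi genes, 3 were called in SPI against WT (7.14%, below the 24.5% of all features): Copz2, a COPI zeta subunit, at -0.88 log2, Arfip2, an ARF-binding protein, at -0.55, and Stx5a, the Golgi syntaxin, at 0.35. Of 25 measured among 29 COPII and endoplasmic reticulum export genes, 10 fell and none rose (40%). Cnih1, a cargo receptor of COPII vesicles, had -1.41 log2, Kdelr2, a receptor returning residents to the endoplasmic reticulum, -1.12, and Mcfd2, a partner of the cargo lectin Lman1, -0.75. Both lists were chosen with results of these arrays known, and their counts are a description.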

How the data were processed

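RNA of 14 samples was hybridised to Illumina mouse arrays and, per the submitters' processing notes, read with BeadStudio (version not given). The deposited table holds, per the file headers, the raw intensity (average signal) and the detection p-value of 25697 probes on each array, not normalised. The bead and scan steps before it are not given in the sources used here. Signals were background corrected, quantile normalised and log2 transformed with neqc (offset 16; limma 3.58.1, R 4.3.3), which takes the background from the detection p-values, as the table has no control probes. Kept were the 12140 probes with a detection p under 0.05 on 4 or more arrays, and the brightest stood for each gene, giving 9355 features (8671 named genes and 684 probes without a symbol). Names come from the platform annotation, in which 23978 probes have 1 symbol, 0 several and 1719 none. The number of arrays limits precision. No source says that the WT samples were prepared apart, which does not show that they were prepared together. The p-values measure the spread between these samples. For each feature the fit takes 1 spread for all groups, while the median SD over all features was 0.31 log2 in SPI, 0.20 in SPE and 0.17 in WT.

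All 3 groups entered 1 limma fit with animal as a random block (consensus correlation 0.319), adjusted over 9355 features. The labels give the animal of each array, and same-animal deviations correlated at 0.262, 0.131, 0.626 and 0.266 for animals 146, 147, 148 and 166. The procedure was tested on simulated data in which 200 features changed. That simulation gave all groups the same spread and no dimmer arrays, so it does not cover the wider spread and lower signal of SPI. The members, the gene lists and the tests were chosen with earlier results of these data known. Per-array values were named for the members with the smallest p in SPI against WT and for the COPI subunits. Alternatives changed the background correction, scaling, filter, block, samples and covariates.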

Additional observations from a re-analysis of the deposited data

Results flagged for a closer look

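For 18 genes, the mean raw signal and the number of probes detected, each of the 3 groups was searched for an array far from the others of its group. Of these 60 searches, of which chance marks about 1 in 20, 8 found one. The outer array of animal 148 was such an array for Arf3 (10.76 log2), Arf5 (6.10), Gosr2 (6.80), Ykt6 (7.04) and Tpst2 (9.78), low for the first 4 and high for Tpst2. The others were Bet1 in SPI 147 (4.36, not detected), Cog6 in SPE 165 (8.99) and Cog2 in WT 199 (6.06).

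The fit of SPI against SPE called Golga7 (-0.93 log2), Arf5 (-1.24), Arf3 (-0.78), Gosr2 (-0.76), Bet1 (-0.69), Tmed10 (-0.27), Tpst2 (0.39) and Golga2 (0.43). With the replicate block as fixed effects in 4 animals only Golga7 kept its call, where 3.81% of all features were called. The further Gosr2 probes had -0.95, called, and -0.097 and -0.064, not called. The values of Tpst2 and Golga2 are negative with arrays scaled on the median of all probes.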

How the results depend on the processing

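Counts of members called are given here with the share of all features called in brackets. In SPI against WT 13 were called (24.5%), and 31, all lower, with arrays scaled on the median of all probes (43%). Scaled on the median of detected probes, where the median over all features was 0.18, 9 were called, 1 higher and 8 lower (34.1%). With mean signal as a covariate 0 were called (5.38%). Leaving out 1 array gave 8 (without WT 142, 17.7%) to 16 (without SPI 166, 27.5%, and without SPE 148, 28.2%). With all-probe scaling Golga2 turned to -0.71 log2, Gorasp1 to -0.85, Cope to -0.69, Cog2 to -0.31, Cog8 to -0.71 and Tpst2 to -0.59 (0.0012 for Gorasp1 to 0.54 for Cog2 above the median feature). In SPI against SPE 8 were called (20.5%), and 0 with all-probe scaling (0%), where Golga2 turned to -0.60 and Tpst2 to -0.63. The count there was 5 with detected-probe scaling (22.8%), 4 without the detection filter (7.03%), 4 with no replicate block (11.4%) and 3 with those groups alone (12.6%). It was 1 with the covariate (8.35%), 5 without the 3 dimmest arrays (13.1%) and 5 without animal 148 (18.1%). With the replicate block as fixed effects in 4 animals it was 1 (3.81%). When 1 array was left out, the count was 1 (without SPI 148, 10.4%) to 11 (without SPI 166, 23.9%). It was 4 without SPE 146 (15.3%) and 5 without SPE 165 (15.7%). Of 31 alternatives for SPI against WT, Arf3, Arf5 and Gosr2 kept their call in 30, Golga7, Cog2 and Ykt6 in 29, Cog8 and Tpst2 in 28, Cog6 in 24, Golga2, Gorasp1 and Cope in 20 and Copg1 in 17. Of 32 for SPI against SPE, Golga7 kept it in 30, Gosr2 in 28, Tpst2 in 27, Arf3 in 26, Arf5 in 23, Tmed10 in 19, Golga2 in 15 and Bet1 in 11. In SPE against WT 0 were called in every setting run. Detected-probe scaling, and leaving out SPI 147 and SPE 148 together, were chosen after seeing the data. Slide as a block was not run, since no chip is named. The dimmest arrays limit the values of faint genes.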
